A study of Mus musculus with 6 samples.

Results

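The interferon-stimulated antiviral genes described here are 41 mouse genes chosen by symbol, and all 41 were found among the 25491 genes of the deposited count table. They encode the factors that carry the interferon signal to DNA, the sensors of foreign nucleic acid, and the proteins that restrict viruses. RNA was measured in marrow mesenchymal progenitors, stromal precursors of bone, cartilage and fat that also support blood formation. These were sorted as CD45-, TER119-, CD31-, CD44-, CD51+ and SCA1-. The libraries came from C57BL/6J mice aged 14 weeks, 3 of them wild type and 3 Lama4-/-, which lack the alpha 4 chain of basement membrane laminins. Mice of both genotypes had received a sublethal radiation dose of 7 Gy 6 weeks earlier, so no group was unirradiated. How the Lama4 allele was made, and whether each library came from a separate mouse, is not given in the sources used here, so p-values measure only how far these samples spread, part or all of which may be technical.

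Interferons bind receptors that activate the kinases JAK1 and TYK2, and these phosphorylate STAT2. STAT2 and IRF9 are subunits of a complex that binds an element with the core GAAANNGAAA, the interferon-stimulated response element, in the promoters of many of these genes. A low level of such transcripts is found in many unstimulated tissues, and IRF7 among them amplifies the response by driving further interferon genes. In bone marrow, interferons are known to act on blood stem cells and on the stroma around them.

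The response element was searched in RefSeq promoter windows (build GRCm38.p6, 250 bases before to 50 after each transcript start), on both strands, as GAAANNGAAA or its complement TTTCNNTTTC. Of the 41 members, 32 had a window by symbol, and 17 of these held a match in at least 1 of their windows. Per window it was 17 of 41, or 41.5%, while the share of all 32851 promoter windows was 3.44%. A second element, the gamma-activated site TTCNNNGAA, which can overlap the other in these windows, stood in 11 of the 41 windows (26.8%) and in 8.3% of all windows. A match is a description of the letters and not a site shown to be bound. Whether matches go with the direction of change was not tested. Ifih1 and Ddx58, lower in Lama4-/- below, hold a match, and Irf7, higher there, holds none. Ifit2 has a second window besides the one shown, which also holds no match. The 160 bases before the transcript start are shown for neighbouring genes of the Ifit cluster, since their values below went in different directions, and for Isg15, Bst2 and Irf7. Each is written 5′ to 3′ on the strand of the gene, with matches to the response element in capitals.

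Ifit1 lies on the plus strand, chr19:34640729-34640888, with 2 matches.
Ifit1: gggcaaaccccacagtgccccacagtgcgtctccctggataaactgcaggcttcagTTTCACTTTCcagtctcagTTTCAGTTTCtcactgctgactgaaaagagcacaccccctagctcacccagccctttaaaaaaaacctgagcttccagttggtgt
Ifit3 lies on the plus strand, chr19:34583369-34583528, with 2 matches.
Ifit3: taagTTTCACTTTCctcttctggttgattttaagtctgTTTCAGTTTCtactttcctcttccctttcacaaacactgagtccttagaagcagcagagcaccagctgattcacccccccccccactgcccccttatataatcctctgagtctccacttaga
Ifit2 lies on the plus strand, chr19:34550534-34550693, with 0 matches in this window.
Ifit2: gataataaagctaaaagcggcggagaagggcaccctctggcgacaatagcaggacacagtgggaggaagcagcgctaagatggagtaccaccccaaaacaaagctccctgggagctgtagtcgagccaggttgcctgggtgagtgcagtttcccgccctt
Isg15 lies on the minus strand, chr4:156200819-156200978, with 3 overlapping matches.
Isg15: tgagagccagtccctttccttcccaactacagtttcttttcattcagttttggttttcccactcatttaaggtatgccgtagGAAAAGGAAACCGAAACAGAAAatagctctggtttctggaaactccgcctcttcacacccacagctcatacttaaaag
Bst2 lies on the minus strand, chr8:71537473-71537632, with 2 overlapping matches.
Bst2: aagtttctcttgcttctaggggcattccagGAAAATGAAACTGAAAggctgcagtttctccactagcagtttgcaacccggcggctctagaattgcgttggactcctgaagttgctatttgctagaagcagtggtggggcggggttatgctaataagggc
Irf7 lies on the minus strand, chr7:141266425-141266584, with 0 matches in this window.
Irf7: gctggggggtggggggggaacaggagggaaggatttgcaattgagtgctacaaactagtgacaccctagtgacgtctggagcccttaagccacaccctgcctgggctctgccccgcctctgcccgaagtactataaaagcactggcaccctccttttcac

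**Figure D1:**
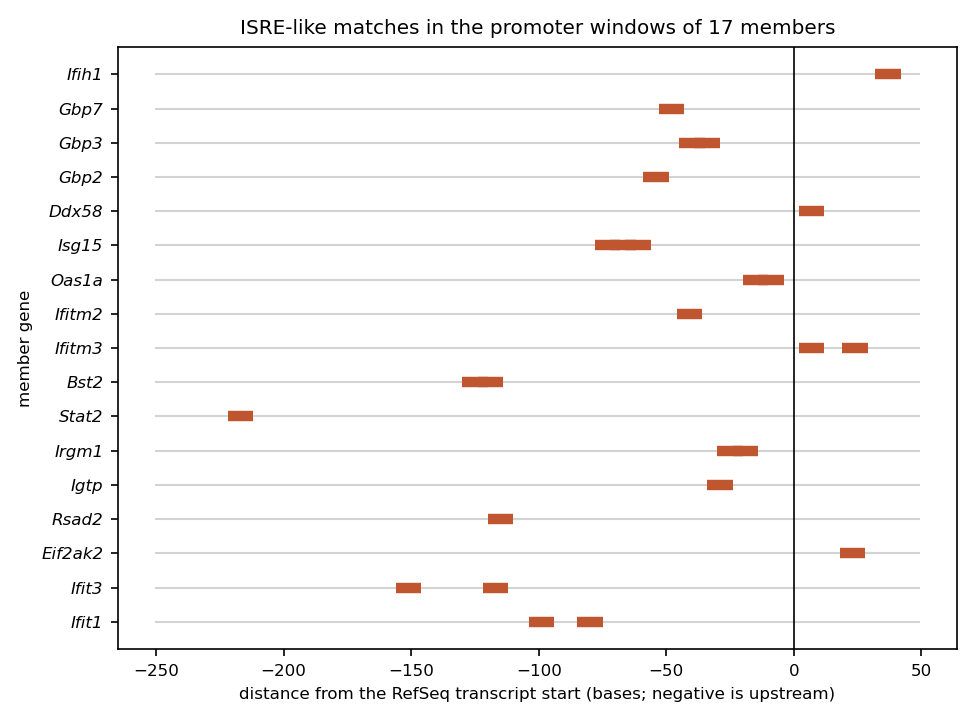
Positions of matches to GAAANNGAAA or its complement in the RefSeq promoter windows of the 17 members that hold one, by distance in bases from the transcript start on the x axis, with a member gene on each line (grey, the searched window; orange, a match of 10 bases). In most of these members the matches lie upstream of the start, while those of Ifih1, Ddx58, Ifitm3 and Eif2ak2 lie downstream of it.

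The libraries held between 6263830 and 15663957 counts, with the lowest total in wild type replicate 2. Lama4, read as a check of the labels, had 1281 counts over the wild type libraries and 0 in each Lama4-/- library. The stromal gene Cxcl12 was between 3701 and 10050 CPM over the 6 libraries (CPM, counts scaled to TMM-adjusted library totals). Of the sort markers, CD51 (Itgav) was at 114 ± 22.5 CPM in wild type with 59.2 ± 14.3 in Lama4-/- (SD, n = 3). Cd44 transcripts, although the cells were gated CD44-, ran from 53.2 to 152 CPM, at 121 ± 43.8 with 63.6 ± 15.98 CPM (SD, n = 3). Their log2 fold changes of -0.94 and -0.93 were -0.12 and -0.32 with the length trend described below removed. CD45 (Ptprc) was at 4.09 CPM or less and CD31 (Pecam1) at 2.05 CPM or less. Ly6a, which encodes the gate marker SCA1 and is itself known as interferon-inducible, was at 11.7 ± 4.004 CPM in the wild type libraries and 10.5 ± 1.65 CPM in Lama4-/- (SD, n = 3). Transcripts of other blood cells were nevertheless present and differed between the genotypes. The summed markers of neutrophils ran from 24.5 to 96.98 CPM in wild type libraries and from 78.5 to 683 CPM in Lama4-/-, with a log2 fold change above 0 in 8 of 8 tested markers and Ly6g under 2 CPM in every library. Those of macrophages and monocytes ran from 23.6 to 48.5 CPM and from 61.65 to 116 CPM, with 6 of 7 above 0, while Itgam and Cx3cr1 were under 2 CPM everywhere. Lyz2 made up most of each Lama4-/- sum, at 88.65, 74.01 and 36.45 CPM against 20.27, 11.47 and 18.67 CPM in wild type. Adgre1 was not tested, at 0.07, 0.51 and 8.18 CPM in wild type with 0.06, 0.15 and 0 CPM in Lama4-/-. Red cell markers ran from 257 to 1693 CPM and from 1379 to 3874 CPM, with 8 of 8 above 0. Of 7 listed markers of T and NK cells only Cd3g and Nkg7 were in the table, and these 2 summed to 1.31 CPM or less. The plasmacytoid dendritic cell markers Ccr9, Cox6a2 and Klk1 were under 2 CPM in every library. Summed endothelial markers ran from 5.24 to 9.41 CPM in wild type libraries and from 0.12 to 1.09 CPM in Lama4-/-. Those of B and plasma cells ran from 57.2 to 88.7 and from 43.6 to 46.9 CPM. Only 2 endothelial markers were tested, Pecam1 and Stab2, each at 2.39 CPM or less, and 1 B and plasma cell marker. Of these, 0 were above 0. Of 7 listed B and plasma cell markers 4 were in the table, and Cd79a, Jchain and Mzb1 were under 2 CPM in every library. The B and plasma cell sums thus came mainly from Ebf1, the only 1 tested. The other markers of the plasmacytoid list in the table were the member Bst2 and Tcf4, which is not limited to those cells and was at 168 ± 47.8 CPM in wild type with 63.6 ± 24.0 in Lama4-/- (SD, n = 3). Of 11 stromal markers, 2 had a log2 fold change above 0 and 9 below. At an unadjusted p under 0.05, 0 were higher and 5 lower, or 3 lower with the length trend removed. Lepr was at 361 ± 137 against 128 ± 52.2 CPM (SD, n = 3), and with the trend removed its log2 fold change was -0.95. In bulk RNA, fewer cells of a type and less RNA per cell cannot be told apart.

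Irf7 was higher and Ddx58 lower in Lama4-/- with no overlap between the genotypes, and Usp18, Bst2, Ifit1, Ifit3 and Ifi27 had means 1.52 to 3.08 times those of wild type. The sensors Ddx58 and Ifih1 were lower, at 0.372 and 0.457 times the wild type mean. Ifit2 and Parp9 were also lower without overlap, at 0.197 and 0.660 times, and Oas1a, Oasl2, Mx2 and Rtp4 were higher without overlap. Each of these had an edgeR unadjusted p above 0.05. Most of the remaining members, including the transcription factors Irf1, Irf9 and Stat2 and the abundant Ifitm3 and Lgals3bp, differed by less than the spread between libraries. In the edgeR quasi-likelihood test, adjusted over all 14465 tested genes, 0 of the 40 tested members passed an adjusted p of 0.05, where 0.00691% of all tested genes passed (1 gene, Lama4). The member Mx1 had too few counts to be tested. At an unadjusted p under 0.05, 6 of 40 members (15%) were higher in Lama4-/-, where 4.45% of all tested genes were, and 2 of 40 (5%) were lower, where 8.34% were. With DESeq2, Irf7 and Ddx58 passed the adjustment, 2 of 41 members. Of the 25358 genes with a DESeq2 p-value, 0.682% were called higher and 2.24% lower. Some of those genes, such as Itgam and Cx3cr1, had no adjusted p and could not be called, while every member had one. The shares among genes with an adjusted p were thus larger, and 2 of 41 cannot be read directly against the shares given.

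Over the 40 tested members, 26 had a log2 fold change above 0 and the median was 0.19, between -2.34 for Ifit2 and 2.26 for Mx2. Among all tested genes 48% were above 0 and the median was -0.04. In 9 of the 40 tested members (22.5%) every Lama4-/- library was above every wild type library, where 10.3% of all tested genes were, and in 4 (10%) every one was below, where 12% were. Lama4-/- replicate 1 held the highest value of 21 of the 41 members, and their summed level there was 2679 CPM. The sums of Lama4-/- replicates 2 and 3 were 2079 and 1837 CPM and those of wild type replicates 1, 2 and 3 were 2103, 1691 and 1645 CPM, so the summed levels overlapped between the genotypes. Without Lama4-/- replicate 1, the median was 0.02, where that of all tested genes was -0.05, and 21 of 41 members were above 0. The members higher at an unadjusted p under 0.05 went from 6 to 1, which was Irf7, where 2.98% of all tested genes were then higher. There were 3 lower members, where 7.79% of all tested genes were lower. Without wild type replicate 2 there were 3 higher members, Irf7, Usp18 and Ifi27, where 4.6% were, and 2 lower, where 8.09% were.

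**Figure D2:**
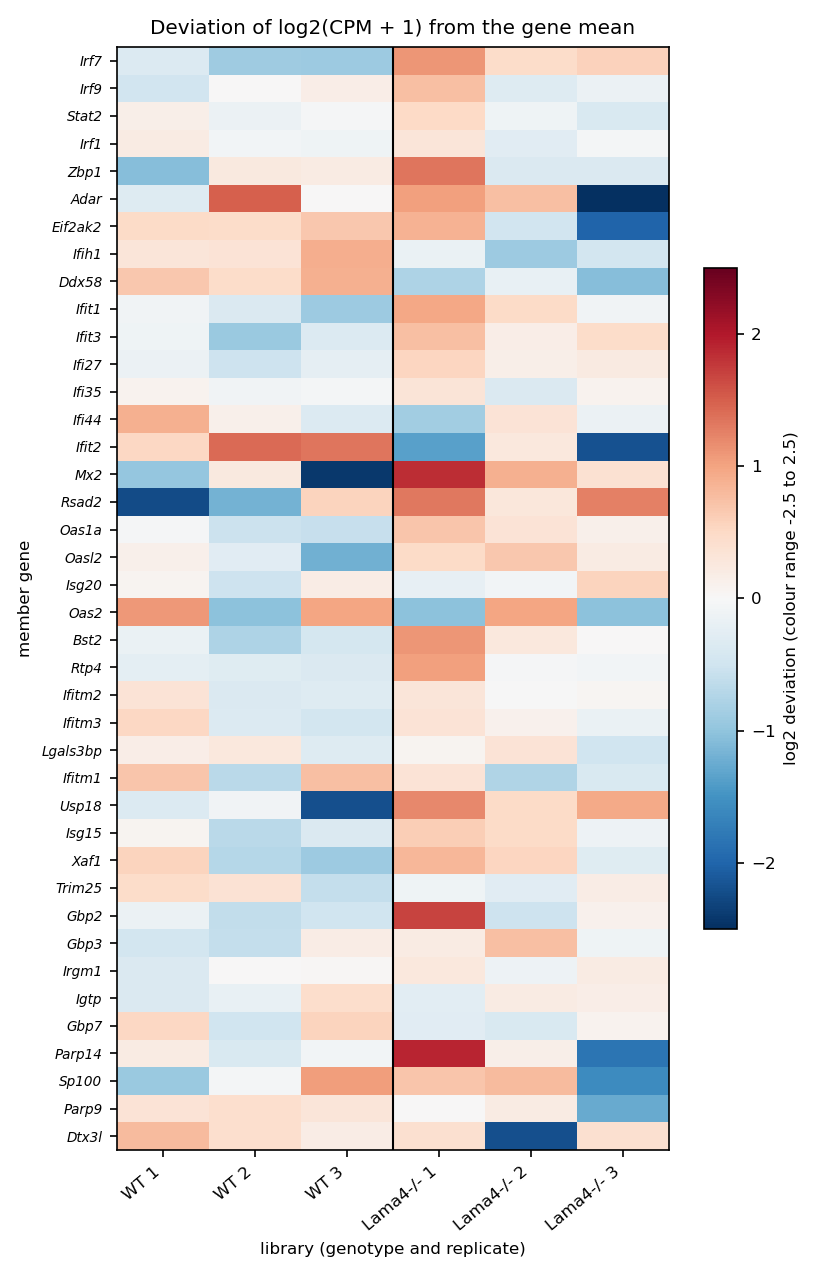
Deviation of log2(CPM + 1) from each gene's mean over the 6 libraries, with the 40 tested members as rows grouped by role and the libraries as columns (red, above the gene's mean; blue, below; the black line parts the genotypes). Lama4-/- replicate 1 is the reddest column, with the highest value of 21 members, and Irf7, Ifit3, Ifi27, Bst2 and Usp18 are lower in all wild type than in all Lama4-/- libraries.

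Fold changes in this series followed transcript length, which bears on members of such different sizes. Between the length of the longest transcript and the log2 fold change, Spearman's rho over 14463 genes was -0.46. Over the 40 tested members, whose transcripts ran from 655 to 7417 bases with a median of 2902, it was -0.39. These are descriptions across genes that share the same 6 libraries. With a smooth length trend removed from every library, the median of the members was 0.32 and that of all genes 0.02. Above 0 were 24 of 40 members (60%), where 51.4% of all tested genes were. At an unadjusted p under 0.05 there were then 2 higher members, Irf7 and Rsad2, where 4.95% of all genes were higher, and 1 lower, Ddx58, where 3.16% were. Upper-quartile scaling in place of TMM gave 988 higher and 967 lower genes at that p, against 644 and 1207, or 6.83% and 6.69% of tested genes, and 7 higher and 2 lower members.

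Of the 4 transcription factors, only Irf7 had groups that did not overlap. IRF7 is the factor that amplifies interferon production, and its gene (chromosome 7, 141262706 to 141266481, minus strand, GRCm38) has a longest transcript of 3240 bases. Irf7 was at 51.9, 34.9 and 34.5 CPM in wild type replicates 1 to 3 and at 143, 91.2 and 98.2 CPM in Lama4-/-. The lowest Lama4-/- library was thus above the highest wild type library, and wild type replicate 1 was the highest of its group. Its log2 fold change was 1.45 (SE 0.28; edgeR adjusted p = 0.237), and between 1.24 and 1.69 over all 16 alternatives, with an unadjusted p under 0.05 in each. With DESeq2 the adjusted p was 0.000603, and over the alternatives it ran from there to 0.615. In Lama4-/- replicate 3, where the neutrophil markers summed to 78.5 CPM and so lay within the wild type range, Irf7 was at 98.2 CPM. S100a8, Camp, Retnlg and Elane were above every wild type library there, at 27.7, 5.23, 3.99 and 1.89 CPM. S100a9, Ngp, Ltf, Mpo and Ly6g were not. Red cell markers had their highest sum in that library, at 3874 CPM. The macrophage and monocyte sums of the genotypes did not overlap, and Lyz2 made up most of each Lama4-/- sum. The part of other cells in this and the other differences was not tested.

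IRF9 and STAT2 are subunits of the complex that binds the response element. Irf9 was at 36.9, 52.2 and 58.6 CPM in the wild type libraries and at 87.9, 41.4 and 46.8 CPM in Lama4-/-. Only Lama4-/- replicate 1 stood above the wild type libraries, and the log2 fold change was 0.26 (SE 0.35; edgeR adjusted p = 0.822). Stat2 was at 43.98, 35.96 and 38.96 CPM against 56.1, 36.9 and 30.4 CPM, with overlapping groups and a log2 fold change of 0.05 (SE 0.29). Irf1, a factor induced strongly by interferon gamma, was among the 5 most abundant members per transcript length. It was at 260, 213 and 209.9 CPM in the wild type libraries and at 277, 184 and 217 CPM in Lama4-/-. The means were 228 ± 28.2 and 226 ± 47.4 CPM (SD, n = 3), with a log2 fold change of -0.01 (SE 0.21).

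**Figure D3:**
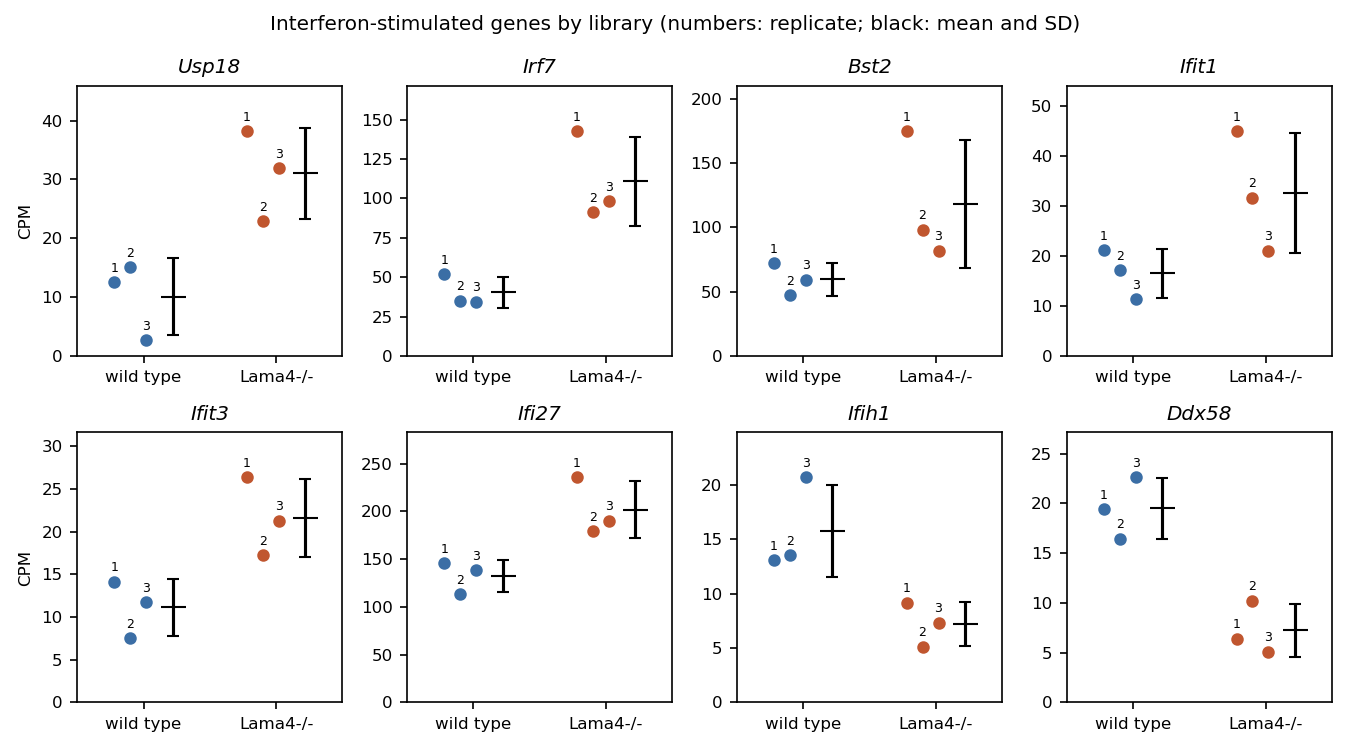
CPM of the 8 members with an unadjusted p under 0.05 in the edgeR test, by genotype, with a point for each library numbered by its replicate and the mean and SD of 3 libraries in black (linear y axes starting at 0). Irf7 lies between 34.5 and 51.9 CPM in the wild type libraries and between 91.2 and 143 CPM in Lama4-/-, and the groups also lie apart for Usp18, Bst2, Ifit3, Ifi27, Ifih1 and Ddx58, while those of Ifit1 overlap by the lowest Lama4-/- library.

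The 5 sensors of foreign or unusual RNA and DNA had a median log2 fold change of -0.71, with 1 above 0. Their transcripts are long, with a median of 4313 bases, and the group's median was -0.41, with 2 above 0, once the length trend was removed. Ddx58 encodes RIG-I, the receptor for short double-stranded RNA with a 5′ triphosphate (chromosome 4, 40203773 to 40239828, minus strand). Ddx58 was at 19.4, 16.4 and 22.6 CPM in the wild type libraries and at 6.42, 10.2 and 5.08 CPM in Lama4-/-. No library of 1 genotype reached the range of the other. The log2 fold change was -1.43 (SE 0.42; edgeR adjusted p = 0.258), and after removal of the length trend it was -1.26. It stayed between -1.76 and -1.23 over 16 alternatives, each with an unadjusted p under 0.05, and the adjusted p ran from 0.0336 with DESeq2 to 0.625. The authors' deposited table lists 2 members with an adjusted p under 0.05, Irf7 at a log2 fold change of 1.35 (adjusted p = 0.000479 in the authors' deposited table) and Ddx58 at -1.23 (adjusted p = 0.027 there). Those values come from the same libraries, and the submitters also name DESeq2, so they are not separate evidence. Of the 10180 genes with an adjusted p in the authors' deposited table, 6.63% were under 0.05, and 3 members have none.

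Ifih1 encodes MDA5, the related receptor for long double-stranded RNA. Ifih1 was at 13.1, 13.5 and 20.7 CPM in the wild type libraries and at 9.18, 5.11 and 7.33 CPM in Lama4-/-, again with no overlap. Its log2 fold change of -1.13 (SE 0.44; edgeR adjusted p = 0.350) was -0.55 with the length trend removed, and its longest transcript has 5470 bases. Eif2ak2, which encodes the kinase PKR that halts translation on double-stranded RNA, was at 13.9, 13.5 and 16.05 CPM in the wild type libraries and at 18.3, 6.62 and 1.67 CPM in Lama4-/-. Its Lama4-/- libraries spread on both sides of the wild type range. Adar, the adenosine deaminase that edits double-stranded RNA, had 0 counts in Lama4-/- replicate 3 and 12.03 and 14.6 CPM in the other two. Its exons share 1365 bases with Chrnb2 on the opposite strand, and the kit does not mark strand. Zbp1, a sensor of Z-form nucleic acids, was at 35.9 CPM in Lama4-/- replicate 1 and between 6.06 and 16.4 CPM in the other 5 libraries.

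The IFIT proteins bind viral RNA, and their genes lie side by side on chromosome 19. Ifit1 (34640871 to 34650009, plus strand) was at 21.2, 17.1 and 11.4 CPM in the wild type libraries and at 45.1, 31.7 and 21.1 CPM in Lama4-/-. Ifit3 (34583531 to 34588731, plus strand) was at 14.1, 7.53 and 11.7 CPM against 26.4, 17.2 and 21.3 CPM. Both means were near the same multiple of wild type, 1.97 for Ifit1 and 1.94 for Ifit3, with log2 fold changes of 0.98 (SE 0.39) and 0.95 (SE 0.38). Their edgeR adjusted p were 0.367 and 0.365. The groups of Ifit3 did not overlap, while the lowest Lama4-/- value of Ifit1 lay just under the highest of wild type. Ifit2 (34550694 to 34576419, plus strand) went the other way. Ifit2 was at 5.98, 11.99 and 11.3 CPM in the wild type libraries and at 0.90, 4.81 and 0.07 CPM in Lama4-/-, from 80, 70 and 147 counts against 15, 64 and 1. All 3 wild type libraries stood above all 3 Lama4-/- libraries. Its log2 fold change of -2.34 had an SE of 1.21 (edgeR adjusted p = 0.479), and it was -2.22 with the length trend removed. Without Lama4-/- replicate 2 it was -4.28. Ifit3 has a near-identical neighbour, Ifit3b, so reads may be split between them.

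Ifi27, a mitochondrial and nuclear-envelope protein of strong interferon induction, was the member second in level per transcript length. It was at 146, 114 and 138 CPM in the wild type libraries and at 235, 179 and 190.2 CPM in Lama4-/-. The groups did not overlap, with means of 133 ± 16.9 and 202 ± 29.8 CPM (SD, n = 3) and a log2 fold change of 0.60 (SE 0.20; edgeR adjusted p = 0.290). Its transcript is short, at 977 bases, and with the length trend removed the log2 fold change was 0.26. Ifi35 and Ifi44 had overlapping groups, with log2 fold changes of 0.07 and -0.54.

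Of the OAS, MX and RSAD2 group, 5 of 6 tested members were above 0 and 0 had an unadjusted p under 0.05 in the edgeR test. Oas1a and Oasl2 belong to the family that senses double-stranded RNA and makes 2′-5′ oligoadenylate, although Oasl2 is known better for its ubiquitin-like domains. Oas1a was at 6.51, 4.28 and 4.17 CPM in the wild type libraries and at 11.5, 8.80 and 7.41 CPM in Lama4-/-. Oasl2 was at 33.7, 25.2 and 12.8 CPM against 42.97, 49.7 and 35.6 CPM. Neither pair of groups overlapped, with log2 fold changes of 0.88 (SE 0.52) and 0.84 (SE 0.38). Reads of Oas1a may be shared with its paralogs Oas1b and Oas1g.

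Rsad2 encodes viperin, an enzyme that makes a chain-terminating nucleotide. Rsad2 was at 3.96, 9.25 and 33.3 CPM in the wild type libraries and at 56.9, 27.5 and 54.6 CPM in Lama4-/-. Wild type replicate 3 overlapped the Lama4-/- group, and the log2 fold change was 1.57 (SE 0.73; edgeR adjusted p = 0.426). Mx2 was at 1.72, 5.31 and 0 CPM in the wild type libraries and at 18.1, 8.87 and 5.95 CPM in Lama4-/-, which did not overlap. GENCODE annotates it as a polymorphic pseudogene, and the log2 fold change of 2.26 had an SE of 1.36 (edgeR adjusted p = 0.545). It was 3.66 without wild type replicate 2. Mx1, the restriction factor for influenza virus that is defective in many laboratory strains, had between 0 and 22 counts a library and was not tested. Oas2 had 0 counts in 3 of the 6 libraries. Isg20, an exonuclease, had overlapping groups and a log2 fold change of 0.19.

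The next group are membrane proteins that block the entry or release of viruses, together with Rtp4 and Lgals3bp. Per kilobase of transcript, Ifitm3 had the highest mean level over the 6 libraries at 577 CPM per kilobase, followed by Ifi27 at 171, Lgals3bp at 141, Bst2 at 112 and Irf1 at 106 CPM per kilobase. Bst2 encodes tetherin, which holds budding virus at the cell surface. Bst2 was at 72.3, 47.1 and 59.4 CPM in the wild type libraries and at 175, 98.2 and 81.98 CPM in Lama4-/-. The groups did not overlap, though Lama4-/- replicate 1 lay far above the rest, and the log2 fold change was 0.99 (SE 0.33; edgeR adjusted p = 0.302). It was 0.64 with the length trend removed and 0.60 without Lama4-/- replicate 1. Rtp4, a chaperone of receptors at the membrane, was at 26.1, 25.00 and 24.00 CPM in the wild type libraries and at 64.04, 30.6 and 29.6 CPM in Lama4-/-. Its groups did not overlap, but without Lama4-/- replicate 1 the log2 fold change went from 0.73 (SE 0.36; edgeR adjusted p = 0.453) to 0.28.

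IFITM proteins sit in cell and endosome membranes and hinder fusion of viruses. Ifitm3 was at 541, 298 and 274 CPM in the wild type libraries and at 483, 411 and 339 CPM in Lama4-/-. The highest value was that of wild type replicate 1, the groups overlapped, and the log2 fold change was 0.15 (SE 0.30), or -0.19 with the length trend removed. Ifitm2 was at 76.9, 47.3 and 48.5 CPM against 74.8, 59.9 and 62.95 CPM, and its log2 fold change was 0.19 (SE 0.26), or -0.15 with the length trend removed. Ifitm1 was at 13.5, 4.62 and 14.04 CPM against 10.4, 4.29 and 5.88 CPM, and its log2 fold change was -0.65 (SE 0.61). None of these related genes differed beyond the spread of the libraries, and reads may be shared among them. Lgals3bp, a secreted glycoprotein, was at 359, 384 and 256 CPM in the wild type libraries and at 335, 405 and 225 CPM in Lama4-/-, with a log2 fold change of -0.05 (SE 0.27).

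ISG15 is a ubiquitin-like protein attached to other proteins during the response, and USP18 removes it and also blocks the interferon receptor. Usp18 was at 12.5, 15.07 and 2.70 CPM in the wild type libraries and at 38.2, 22.9 and 31.9 CPM in Lama4-/-. The groups did not overlap, with a log2 fold change of 1.63 (SE 0.61; edgeR adjusted p = 0.332), and after removal of the length trend it was 1.38. Isg15 was at 23.6, 13.7 and 17.4 CPM against 34.8, 31.8 and 20.3 CPM. Lama4-/- replicate 3 fell inside the wild type range, and the log2 fold change was 0.67 (SE 0.35; edgeR adjusted p = 0.483). Xaf1, an antagonist of an inhibitor of apoptosis, and Trim25, the ubiquitin ligase that acts on RIG-I, had overlapping groups, with log2 fold changes of 0.66 and -0.22.

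**Figure D4:**
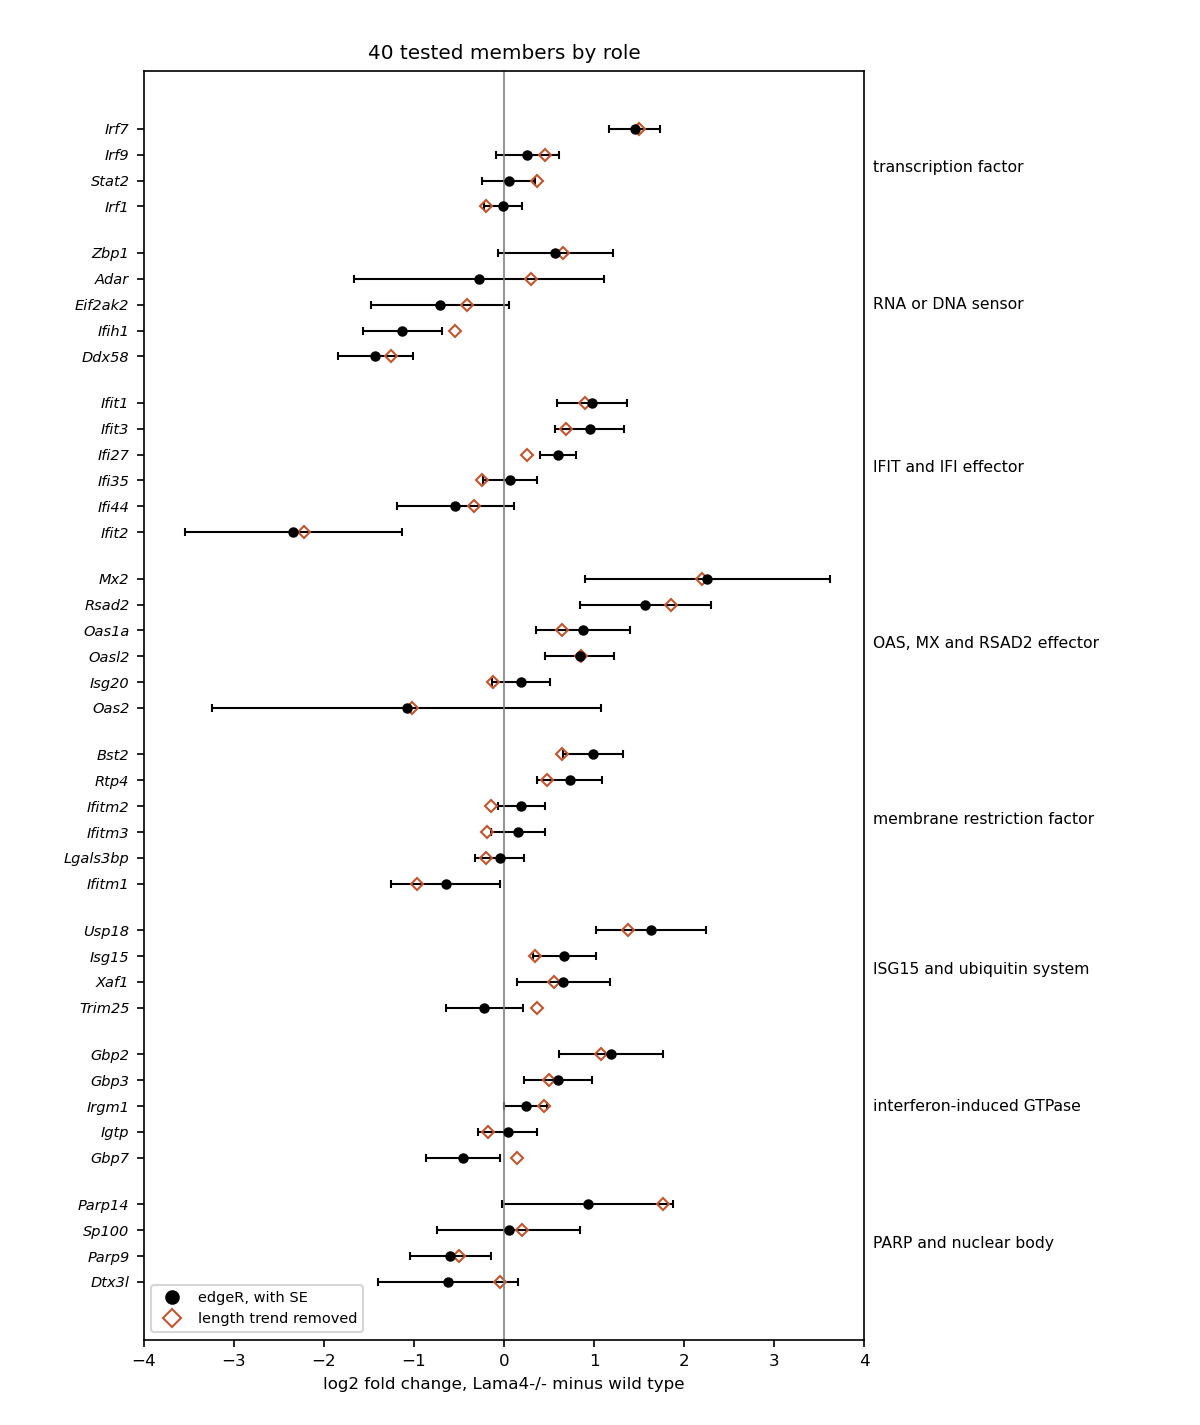
Log2 fold change of Lama4-/- minus wild type for the 40 tested members, grouped by role, as estimated by edgeR (black, with bars of 1 standard error) and with the transcript length trend removed (open orange diamonds). Irf7 at 1.45 and Usp18 at 1.63 lie to the right and Ddx58 at -1.43 to the left, while Ifit2 and Mx2, the extremes at -2.34 and 2.26, have wide bars.

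The interferon-induced GTPases attack the vacuoles of intracellular pathogens, and in all 5 the groups overlapped. Gbp2 was at 19.7, 14.04 and 15.2 CPM in the wild type libraries and at 72.9, 15.1 and 23.8 CPM in Lama4-/-, so that its log2 fold change of 1.19 (SE 0.58; edgeR adjusted p = 0.447) drew on Lama4-/- replicate 1. The log2 fold changes of Gbp3, Irgm1, Igtp and Gbp7 were 0.60, 0.24, 0.04 and -0.46. Parp9 and Dtx3l encode partner proteins of the DNA damage and interferon responses and share 458 exon bases on opposite strands. Parp9 was at 22.3, 23.6 and 21.8 CPM in the wild type libraries and at 17.6, 20.4 and 6.68 CPM in Lama4-/-. Its groups did not overlap, with a log2 fold change of -0.60 (SE 0.45; edgeR adjusted p = 0.642), which was -0.25 without Lama4-/- replicate 3. Parp14 ran from 1.31 to 29.9 CPM within Lama4-/- alone, and Dtx3l from 1.28 to 12.8 CPM. Sp100, a nuclear body protein, ran from 5.16 to 23.3 CPM within wild type. The 26 tested members with overlapping groups and an unadjusted p of 0.05 or more had log2 fold changes between -1.08 and 1.57 and edgeR adjusted p between 0.426 and 0.987.

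Other genes of the pathway were read from a list of 97 symbols, of which 81 were in the table and 72 were tested. In the edgeR test 0 of the 72 passed the adjustment, and at an unadjusted p under 0.05 there were 4 higher (5.56%) and 3 lower (4.17%), beside the 4.45% and 8.34% of all tested genes. The median log2 fold change was 0.13, with 38 of 72 above 0. None of the 11 symbols of interferons themselves had a row in the table analysed here. Of the 6 receptor chains, 5 had counts in every library, and Ifnlr1 of the interferon lambda receptor had 0 counts in 3 libraries and at most 39 in the others. Its partner Il10rb was at 21.8 ± 2.77 CPM in wild type with 21.9 ± 1.46 in Lama4-/- (SD, n = 3). Ifnar1 and Ifnar2, which form the type I receptor, were at 46.8 ± 22.1 against 45.3 ± 14.8 CPM and 75.01 ± 7.12 against 85.6 ± 25.4 CPM (SD, n = 3). Ifngr1 and Ifngr2, the chains of the interferon gamma receptor, had 131 ± 28.5 CPM in wild type with 160 ± 25.9 in Lama4-/-, and 75.3 ± 7.77 CPM with 92.97 ± 12.5. The groups of Ifngr2 did not overlap, at a log2 fold change of 0.30 (SE 0.20; edgeR adjusted p = 0.588).

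Downstream of the receptors, Jak1, which encodes a kinase shared by both receptors, was at 292 ± 11.3 against 230 ± 56.9 CPM (SD, n = 3) and Tyk2, which encodes the partner kinase at the type I receptor, at 27.00 ± 7.20 against 19.7 ± 8.67 CPM. Their log2 fold changes of -0.35 and -0.45 were 0.10 and 0.00 with the length trend removed. Of the 7 pathway genes with an unadjusted p under 0.05, 3 were inducers of interferon and 4 other interferon-stimulated genes, while 0 were receptors, JAK kinases, STAT factors or negative regulators. Among inducers of interferon, the kinase gene Ikbke was at 13.3, 10.96 and 6.17 CPM in the wild type libraries and at 27.5, 13.3 and 23.5 CPM in Lama4-/-. The endotoxin receptor gene Tlr4 was at 7.85, 5.82 and 19.7 CPM against 1.08, 3.99 and 0.58 CPM. Traf3, an adaptor of the signal from RIG-I to interferon, was at 22.4, 31.3 and 61.1 CPM against 8.88, 7.14 and 0.73 CPM. The groups of Tlr4 and Traf3 did not overlap. The log2 fold change of Traf3 was -2.77 (SE 0.83; edgeR adjusted p = 0.267; DESeq2 adjusted p = 0.0156), and after removal of the length trend it was -1.98.

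Among other interferon-stimulated genes, Ube2l6, which encodes the conjugating enzyme of ISG15, was at 14.2, 31.00 and 37.5 CPM in the wild type libraries and at 81.1, 45.95 and 61.8 CPM in Lama4-/-. Ifi47, a GTPase, was at 24.3, 17.1 and 14.4 CPM against 57.2, 32.4 and 27.5 CPM. Neither overlapped, with log2 fold changes of 1.19 (SE 0.40; edgeR adjusted p = 0.306) and 1.07 (SE 0.38; edgeR adjusted p = 0.321). The chemokine gene Cxcl9 was at 31.1, 8.39 and 25.2 CPM against 106.9, 24.7 and 65.9 CPM, where Lama4-/- replicate 2 fell inside the wild type range. Znfx1, a helicase that senses RNA at mitochondria, was at 18.7, 29.1 and 30.6 CPM in the wild type libraries and at 3.90, 3.38 and 8.93 CPM in Lama4-/-. All its wild type values stood above all its Lama4-/- values. Its log2 fold change was -2.27 (SE 0.50; edgeR adjusted p = 0.237; DESeq2 adjusted p = 0.00202), and after removal of the length trend it was -1.42, with a longest transcript of 7218 bases.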

How the data were processed

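RNA of sorted bone marrow mesenchymal progenitors was amplified with SMART-Seq v4, prepared with Nextera XT and sequenced from 1 end, per the labels' protocols. Such libraries do not mark strand. The submitters' processing notes name STAR 2.6.1d, featureCounts and DESeq2 and the build GRCm38. The authors deposited 1 table in which 2 headings seem swapped. Values under the normalized heading are whole and served as the gene counts deposited by the authors, and the deposited signal under the raw heading, which equals those counts multiplied by 1 factor per library, was left out of all tests. The authors' own log2 fold change, p-value and adjusted p-value stand in the same table, per the file headers. Libraries of 1 genotype differed by far more than counting noise (chi-square per gene at least 42.59 over 6 pairs).

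Genes were kept with filterByExpr, scaled with TMM and tested in edgeR 4.0.16 (R 4.3.3) by quasi-likelihood with robust moderation, 3 libraries against 3, with Benjamini-Hochberg adjustment over 14465 genes at 0.05. The SE is the log2 fold change divided by the square root of its F. CPM values are on TMM-adjusted totals. Lengths and coordinates come from GENCODE M21 (GRCm38), which held 99.9% of the gene IDs. Alternatives were other scalings and filters, DESeq2 1.42.0, limma voom 3.58.1, moderation without the robust option, a block for the replicate number, omission of each library, an adjusted p of 0.10, and removal of the length trend by a lowess curve (span 0.3) as an offset. The procedure was tested on simulated counts: among 13556 genes, the test called 37 of 97 with a 4-fold change, 74 of 95 with a 16-fold change and 6 with none.

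The members, lists and alternatives were chosen with earlier results of these data known. Values in every library are given for members with an unadjusted p under 0.05 or groups that do not overlap, the 5 most abundant per kilobase, and Irf7, Irf9, Stat2, Isg15, Ifit1, Ifit3, Bst2 and the Ifitm genes; Eif2ak2, Rsad2 and Gbp2 were added after their values were seen. Of the pathway list, the receptor chains, Jak1, Tyk2 and genes with an unadjusted p under 0.05 are named; 1 gene of that list is not reported here.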

Additional observations from a re-analysis of the deposited data

How the results depend on the processing

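No member passed an adjusted p of 0.05 in any edgeR or limma voom setting. At an adjusted p of 0.10 there were 0 with the settings of the report, and Irf7 passed it with no filter, at 0.0969, the smallest of these settings. DESeq2 called 2 members and 2 other pathway genes. Over all genes 1 was called, against 741 with DESeq2, 12 with no filter, and 0 with upper-quartile scaling, limma voom, no robust moderation, the length trend removed and the replicate block. Leaving out a library gave 0 to 1. Of 6 members higher and 2 lower at an unadjusted p under 0.05, there were 8 and 1 with the replicate block, 2 and 1 with the length trend removed and 4 and 1 with both; limma voom and DESeq2 gave 9 and 3 and no filter 9 and 2. Over all tested genes the shares higher and lower were 4.42% and 8.92% with the block, 4.95% and 3.16% with the length trend removed, 4.83% and 3.53% with both, 5.43% and 10.8% with limma voom, 3.73% and 7.38% with DESeq2 and 2.86% and 7.49% with no filter. Leaving out a library gave 1 to 8 higher and 1 to 3 lower, 21 to 28 members above 0 and medians from 0.02 to 0.34, with 2.6% to 4.6% of all genes higher and 5.15% to 11.5% lower. The median over all tested genes then ran from -0.08 to -0.02. The cause was not tested.

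Signs changed only for small differences among the named genes. With the length trend removed, log2 fold changes were -0.19 for Ifitm3, -0.15 for Ifitm2, 0.17 for Ifnar1, 0.10 for Jak1 and 0.00 for Tyk2. With the replicate block as well they were -0.16, -0.13, 0.21 and 0.07 for Ifitm3, Ifitm2, Ifnar1 and Jak1. Ifnar1 was at 0.01 with the replicate block alone, 0.16 with limma voom and 0.05 with upper-quartile scaling, which gave 0.05 for Lgals3bp and 0.08 for Irf1; Irf1 was at 0.00 with the filter of 5 CPM in 3 libraries. With a library left out the ranges were -0.17 to 0.11 for Irf1, -0.25 to 0.15 for Lgals3bp, -0.23 to 0.23 for Stat2, -0.14 to 0.45 for Irf9, -0.03 to 0.54 for Ifitm3, -0.34 to 0.40 for Ifnar1 and -0.05 to 0.37 for Ifnar2. Same-numbered libraries of the genotypes had deviations correlated at 0.04, 0.132 and 0.0539 across genes. Pairs with different numbers ran from -0.0764 to 0.00747, so the same-numbered values were small but above all others. Whether the numbers pair the libraries cannot be told from this. The main test took no pairs, and the replicate block is given as an alternative. With 3 libraries a group and the simulated recovery of 37 of 97 genes changed 4-fold, changes under that size could be missed.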

Other observations

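Ratios of counts within a library do not depend on scaling, and those of genes that went in different directions were computed after their values were seen. The count of Ifit2 was 0.283, 0.70 and 0.993 times that of its neighbour Ifit1 in wild type replicates 1 to 3, and 0.02, 0.152 and 0.00345 times in Lama4-/-. Against Ifit3 it was 0.423, 1.59 and 0.967 in wild type and 0.0342, 0.279 and 0.00341 in Lama4-/-. The ratio of Ddx58 to Irf7 was 0.375, 0.471 and 0.655 in wild type and 0.045, 0.112 and 0.0517 in Lama4-/-, and that of Ifih1 to Irf7 was 0.252, 0.387 and 0.60 against 0.0643, 0.0561 and 0.0746. None of the 4 ratios overlapped between the genotypes. The 2-sided exact permutation p was 0.1 for each, the smallest that 3 libraries against 3 can give, and since the genes were picked for their directions this is a description. The transcripts differ in length, from 1745 bases for Ifit3 to 5470 for Ifih1, and the length trend was not removed from these ratios.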
